A study of Mus musculus with 4 samples.

Results

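The 8 genes described here encode steps of cholesterol synthesis and its control: Hmgcs1, Idi1, Fdft1, Sqle, Lss and Cyp51 (enzymes), Srebf2 (transcription factor) and Insig1 (its retention factor). They were chosen by gene symbol, and each symbol matched 1 of the 32285 gene rows of the count tables. Their UMIs (unique molecular identifiers, which mark single captured RNA molecules) were summed per library and cell type, and levels are given as counts per 1000000 UMIs of that sum (CPM).

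Nuclei were taken from Gclc-KO mice, from parts of the cerebral cortex where rod-shaped microglia were abundant, were sorted by DAPI and were sequenced with the 10x 3' kit. Both groups carried floxed Gclc (the Gclc tm1a allele from EUCOMM, C57BL/6NTac) with CaMKII-Cre, which acts in excitatory forebrain neurons, so that glutathione synthesis was targeted in neurons and not in glia, and no treatment was given. The groups differed in age: libraries 3M-1 and 3M-2 came from mice of 3 months, libraries 6M-1 and 6M-2 from mice of 6 months, each from 1 mouse, and the labels name batch 1 or 2. No wild-type library was among the samples, so that all differences are between ages or between cell types within Gclc-KO mice.

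Cholesterol in the brain is made locally, because lipoproteins of the blood do not cross the blood-brain barrier. Acetyl-CoA is turned into mevalonate, then isoprenoid units, squalene and lanosterol, and finally cholesterol, which myelinating oligodendrocytes need for their membranes and which astrocytes also export on lipoproteins. SREBP-2, the product of Srebf2, is held in the endoplasmic reticulum by SCAP and INSIG proteins when sterols are plentiful, and otherwise moves to the nucleus and turns on genes of the pathway, Insig1 included.

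Of 30784 nuclei, 30515 passed the limits on detected genes and mitochondrial UMIs, with 59262228 to 65894316 UMIs per library. Marker genes placed 22835 nuclei (74.8%) in 6 cell types: 12498 excitatory neurons, 3208 inhibitory neurons, 4350 oligodendrocytes, 619 oligodendrocyte precursors (OPCs), 190 astrocytes and 1970 microglia. Marker genes that the assignment did not use were highest in their own type. Inhibitory neuron markers (Dlx6os1, Kcnip1 and Elfn1) summed to 792 to 937 CPM in inhibitory neurons, but also to 324 to 563 CPM in OPCs. The source of these OPC values was not tested. Those of oligodendrocytes (Ermn, Opalin, Mal and Gjb1) summed to 862 to 1281 CPM there and to 4.11 to 14.3 CPM in neurons. Those of astrocytes (Ntsr2, Gjb6 and Fgfr3) summed to 774 to 1127 CPM there and to 2.31 to 3.70 CPM in neurons. Excitatory neuron markers (Slc30a3, Nptx1 and Kcnv1) summed to 19.0 to 34.5 CPM in oligodendrocytes and to 0 to 11.4 CPM in astrocytes, against 85.1 to 144 CPM in neurons, and the part of neuronal RNA in the glial values was not tested. Astrocytes were few, with 34 to 65 nuclei and 105573 to 193693 UMIs per library, so that their values rest on small counts. Gclc was read at 35.1 to 43.5 CPM in the 4 libraries, and its deletion could not be measured without a wild type. Xist was high and the Y-linked genes Ddx3y, Uty, Kdm5d and Eif2s3y were at or near 0 UMIs in the 4 libraries alike.

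The genes lie on 5 chromosomes of GRCm38, the assembly also called mm10, and their identifiers were found in GENCODE M21. Hmgcs1 (ENSMUSG00000093930) spans chr13:119690379-119708260 and Idi1 (ENSMUSG00000058258) spans chr13:8885501-8892451, both on the plus strand. Fdft1 (ENSMUSG00000021273) spans chr14:63145150-63179578 on the minus strand. Sqle (ENSMUSG00000022351) spans chr15:59315077-59331192 and Srebf2 (ENSMUSG00000022463) spans chr15:82147181-82205379, both on the plus strand. Lss (ENSMUSG00000033105) spans chr10:76531588-76557138 and Insig1 (ENSMUSG00000045294) spans chr5:28071363-28078662, both on the plus strand. Cyp51 (ENSMUSG00000001467) spans chr5:4081145-4104746 on the minus strand. Fdft1 overlaps the antisense gene Ctsb at its 3' end, Cyp51 overlaps Akap9 there, and Hmgcs1 and Lss each overlap an antisense transcript that was also counted. The sources used here do not state whether the counting used strand, so that reads of these overlaps may not be told apart.

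Promoter windows from RefSeq (GRCm38.p6) were on hand for 6 of the 8 genes, Sqle and Fdft1 being the others. The 250 bases before each RefSeq start were searched on both strands for TCACNCCA, the core of the classical sterol regulatory element that SREBP binds, and for CCAAT, the NF-Y box that often lies near such elements. The 2 motifs share no position in these windows. TCACNCCA was found in the windows of Hmgcs1 and Srebf2, 2 of the 6, and in 3.67% of all 32851 promoter windows. CCAAT was found in 6 of the 6 windows and in 33.8% of all windows. A match describes letters and not binding. The runs below are shown for the 2 genes with the sterol element core and for Insig1, the gene with the largest difference between glia and neurons, with both motifs in capitals (CCAAT reads ATTGG when it lies on the other strand), 5′ to 3′ on the strand of the gene. They stop before the first annotated transcript base, and the coordinates are chr13:119690101-119690350 for Hmgcs1, chr15:82147019-82147180 for Srebf2 and chr5:28071162-28071362 for Insig1, all on the plus strand.
Hmgcs1: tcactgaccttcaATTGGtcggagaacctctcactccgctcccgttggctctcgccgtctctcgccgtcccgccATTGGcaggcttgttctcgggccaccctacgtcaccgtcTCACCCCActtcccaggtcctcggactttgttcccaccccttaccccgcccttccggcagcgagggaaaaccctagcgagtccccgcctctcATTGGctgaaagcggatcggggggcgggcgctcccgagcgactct
Srebf2: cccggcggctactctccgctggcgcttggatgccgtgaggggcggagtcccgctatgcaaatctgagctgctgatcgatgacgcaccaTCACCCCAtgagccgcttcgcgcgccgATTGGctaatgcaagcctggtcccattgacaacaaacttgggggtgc
Insig1: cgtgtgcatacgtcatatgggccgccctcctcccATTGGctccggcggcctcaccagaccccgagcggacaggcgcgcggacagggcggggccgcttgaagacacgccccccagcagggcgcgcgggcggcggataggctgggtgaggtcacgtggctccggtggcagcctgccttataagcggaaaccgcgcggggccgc
Windows of 30 bases show the CCAAT match of Idi1 nearest its start (chr13:8885576-8885605), of Lss (chr10:76531530-76531559) and of Cyp51 (chr5:4104710-4104739, minus strand). Those of Idi1 and Cyp51 lie within the GENCODE span of the gene, which begins upstream of the RefSeq start.
Idi1: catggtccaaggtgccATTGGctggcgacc
Lss: tggtgatgctctgATTGGccgagctcgcat
Cyp51: ccgctgtccgccaCCAATctggtcctgaga
The sterol element core lies 137 to 130 bases before the RefSeq start of Hmgcs1 and 162 to 155 bases before that of Srebf2, which lies downstream of the GENCODE start where the printed run ends.

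Next, the 8 genes were compared between glia and neurons of the same mice, with excitatory and inhibitory nuclei pooled as neurons and the library as a block. In each library Gclc was targeted in excitatory neurons and not in glia. Cell type and this targeting therefore cannot be told apart in the differences from pooled neurons. Inhibitory neurons were not the target of CaMKII-Cre. Against them, in the fit over cell types below, all 8 genes were called higher in astrocytes (log2 1.25 to 3.08). In oligodendrocytes all but Lss and Cyp51 were called higher (log2 0.58 to 2.24). For these pairs that fit called 41% and 70.9% of all genes in either direction. The effect of the targeting itself was not tested. In astrocytes, all 8 genes were higher than in neurons, by 1.74-fold for Srebf2 to 7.82-fold for Insig1. P-values rest on 4 libraries, 1 mouse each. Across all genes the test called 17.2% higher in astrocytes and 44.6% in either direction. In oligodendrocytes, 5 of the 8 genes were higher (Insig1, Idi1, Hmgcs1, Fdft1 and Srebf2), and Sqle, Cyp51 and Lss did not pass the test. Across all genes the test called 35.7% higher in oligodendrocytes and 74.9% in either direction. With DESeq2, Hmgcs1 (adjusted p = 0.121), Fdft1 (adjusted p = 0.0646) and Srebf2 (adjusted p = 0.0795) were not called in oligodendrocytes, and with each nucleus thinned to 1000 UMIs only Hmgcs1, Fdft1 and Insig1 were called in astrocytes. The median log2 fold change of the 8 genes was 1.75 in astrocytes, against -0.25 over the 14117 genes tested, and 0.39 in oligodendrocytes, against -0.02. The called genes divided into 2425 higher and 3873 lower in astrocytes, and into 3397 higher and 2661 lower when sums were scaled by their totals alone, an alternative chosen after seeing the data. That scaling moved the median over all genes to 0.12 in astrocytes and 0.10 in oligodendrocytes, and the 8 genes were called higher in astrocytes under it as well.

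**Figure D1:**
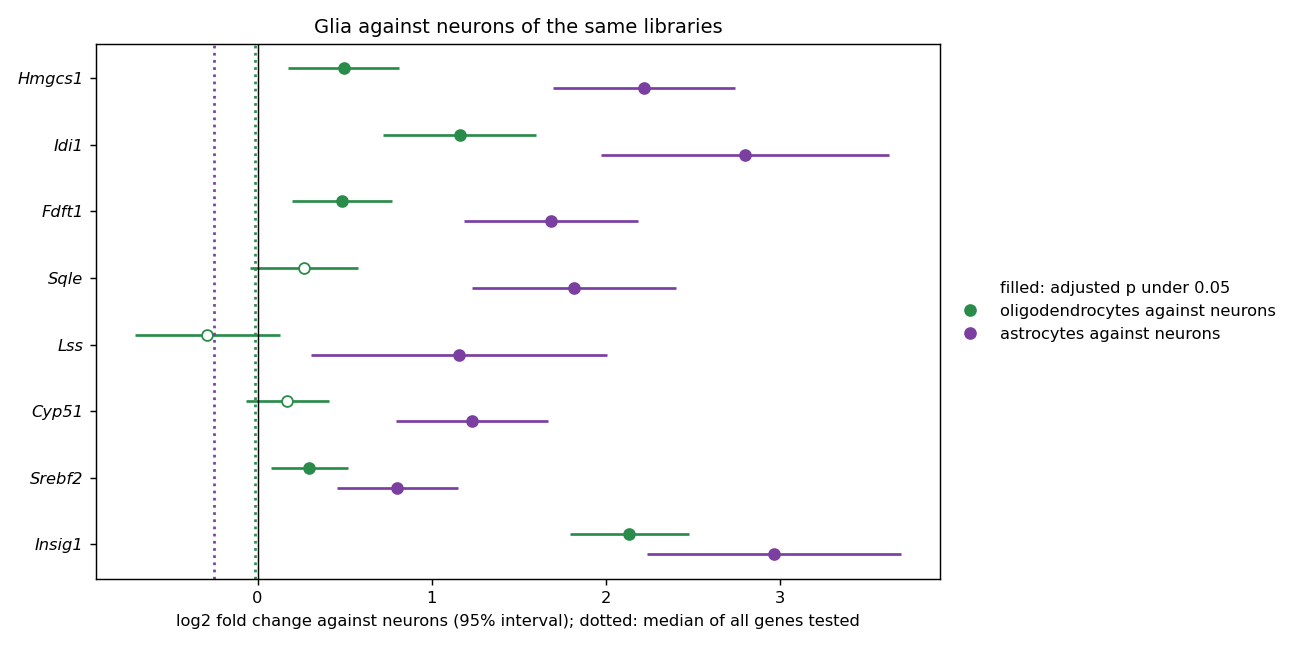
Points show the log2 fold change (x axis) of each gene (y axis) in oligodendrocytes (green) and astrocytes (purple) against neurons of the same 4 libraries, from edgeR, with 95% intervals as lines; filled points passed an adjusted p of 0.05 and dotted lines mark the median of all genes tested. The purple points all lie above 0, from 0.80 to 2.97, and the green points run from -0.29 (Lss) to 2.14 (Insig1).

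Hmgcs1, HMG-CoA synthase, makes the precursor of mevalonate. In neurons its level was 17.9, 24.3, 21.3 and 21.5 CPM in library 3M-1, then 3M-2, then 6M-1, then 6M-2, the order used from here on. In oligodendrocytes it was 20.6, 43.3, 34.8 and 33.4 CPM, and in astrocytes 186, 119, 142 and 60.7 CPM from 36, 21, 15 and 11 UMIs. Astrocytes lay above neurons in every library, and the 6M-2 astrocytes were the lowest of the 4. Oligodendrocytes were 1.41-fold higher than neurons (log2 0.49 ± 0.15 SE, edgeR adjusted p = 0.00558, higher in 4 of 4 libraries), although the 3M-1 oligodendrocytes lay within the range of neurons. Astrocytes were 4.66-fold higher (log2 2.22 ± 0.26 SE, edgeR adjusted p = 3.10e-08).

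Idi1, isopentenyl-diphosphate isomerase, interconverts the isoprenoid building blocks. Its level was 3.52, 4.51, 4.14 and 3.44 CPM in neurons. It was 8.91, 11.3, 9.02 and 8.87 CPM in oligodendrocytes and 41.3, 39.8, 18.9 and 33.1 CPM in astrocytes, the latter from 8, 7, 2 and 6 UMIs. The 3 classes did not overlap. Oligodendrocytes were 2.24-fold higher than neurons (log2 1.16 ± 0.21 SE, edgeR adjusted p = 2.13e-05) and astrocytes 6.96-fold higher (log2 2.80 ± 0.40 SE, edgeR adjusted p = 1.46e-06).

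Fdft1, squalene synthase, joins farnesyl diphosphate into squalene, the first step committed to sterols. Its level was 30.0, 24.7, 32.8 and 26.7 CPM in neurons and 45.7, 56.6, 39.5 and 36.2 CPM in oligodendrocytes. In astrocytes it was 165, 119, 142 and 55.2 CPM from 32, 21, 15 and 10 UMIs. Both glial classes lay above the neurons without overlap, and the 6M-2 astrocytes were again the lowest of the astrocytes. The difference was 1.40-fold in oligodendrocytes (log2 0.49 ± 0.14 SE, edgeR adjusted p = 0.00272) and 3.21-fold in astrocytes (log2 1.68 ± 0.24 SE, edgeR adjusted p = 1.57e-06). Without 3M-2 the oligodendrocyte difference of Fdft1 was 0.32 on the log2 scale (edgeR adjusted p = 0.0543). The same difference was 0.32 against excitatory neurons alone (edgeR adjusted p = 0.0426) and 1.44 against inhibitory neurons alone (edgeR adjusted p = 4.89e-10).

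Sqle, squalene epoxidase, catalyses a rate-limiting oxidation of squalene. Its level was 10.6 CPM (3M-1) to 14.1 CPM (3M-2) in neurons. It was 14.2, 19.3, 15.9 and 16.4 CPM in oligodendrocytes and 67.1, 51.2, 47.4 and 55.2 CPM in astrocytes. The oligodendrocytes lay just above the neurons in each library, but the difference did not pass the test (log2 0.27, 95% interval -0.04 to 0.58, edgeR adjusted p = 0.111). Astrocytes were 3.52-fold higher (log2 1.82 ± 0.29 SE, edgeR adjusted p = 5.70e-06).

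Lss, lanosterol synthase, closes the sterol ring. Its level was 9.75, 10.8, 12.6 and 9.88 CPM in neurons and 7.69, 10.7, 10.9 and 9.22 CPM in oligodendrocytes, and these ranges overlapped (log2 -0.29, 95% interval -0.71 to 0.13, edgeR adjusted p = 0.200). In astrocytes it was 20.7, 62.6, 37.9 and 5.52 CPM from 4, 11, 4 and 1 UMIs, so that the 6M-2 astrocytes lay below the neurons. The 2.23-fold difference in astrocytes passed the test (log2 1.16 ± 0.41 SE, edgeR adjusted p = 0.0243), but without 3M-2 it was 0.47 on the log2 scale (edgeR adjusted p = 0.531), without 6M-1 it was 1.17 (edgeR adjusted p = 0.0564), and with a stricter assignment of nuclei it was 1.17 (edgeR adjusted p = 0.0523).

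Cyp51, lanosterol 14-alpha demethylase, is the cytochrome P450 of the pathway. Its level was 24.3, 31.3, 33.0 and 31.5 CPM in neurons and 32.0, 42.0, 38.6 and 35.5 CPM in oligodendrocytes, higher in 4 of 4 libraries but not past the test (log2 0.17, 95% interval -0.07 to 0.41, edgeR adjusted p = 0.180). In astrocytes it was 67.1, 96.7, 94.7 and 105 CPM, which was 2.35-fold higher than in neurons without overlap (log2 1.23 ± 0.21 SE, edgeR adjusted p = 2.43e-05).

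Srebf2 encodes the transcription factor that drives the enzymes above. Its level was 89.9, 80.1, 77.1 and 75.8 CPM in neurons, 126, 117, 94.2 and 96.6 CPM in oligodendrocytes and 196, 137, 161 and 232 CPM in astrocytes. The classes did not overlap in CPM, and the differences were the smallest called of the 8 genes in each comparison. They were 1.23-fold in oligodendrocytes (log2 0.30 ± 0.11 SE, edgeR adjusted p = 0.0141) and 1.74-fold in astrocytes (log2 0.80 ± 0.17 SE, edgeR adjusted p = 0.000288). The oligodendrocyte difference of Srebf2 was no longer called without 3M-1 (edgeR adjusted p = 0.0502) or without 3M-2 (edgeR adjusted p = 0.0540), without the library as a block (edgeR adjusted p = 0.0667), and against excitatory neurons alone it was 0.16 on the log2 scale (edgeR adjusted p = 0.176). Against inhibitory neurons alone it was 1.01 (edgeR adjusted p = 1.66e-10).

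Insig1 encodes the endoplasmic reticulum protein that retains SCAP and SREBP when sterols are plentiful. Its level was 4.66, 6.32, 6.51 and 4.72 CPM in neurons, 20.2, 34.0, 33.9 and 19.8 CPM in oligodendrocytes and 77.4, 39.8, 37.9 and 55.2 CPM in astrocytes. Each glial value lay above each neuronal value. The difference was 4.40-fold in oligodendrocytes (log2 2.14 ± 0.17 SE, edgeR adjusted p = 4.09e-12) and 7.82-fold in astrocytes (log2 2.97 ± 0.36 SE, edgeR adjusted p = 6.54e-08), the largest of the 8 genes in both comparisons.

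Counting the levels themselves, 7 of the 8 genes in astrocytes (all but Lss) and 5 of the 8 in oligodendrocytes (Idi1, Fdft1, Sqle, Srebf2 and Insig1) lay above neurons with no overlap of the 4 libraries of each class, where 20.5% and 33% of all genes tested did so. CPM scales each sum by its total alone, while the fold changes and tests also carried the TMM scaling of edgeR. Whether the classes stay apart on the tested scale was not examined, and for Sqle and Srebf2 in oligodendrocytes the gap to neurons was small. Fewer nuclei of a subtype within a class and less RNA per nucleus cannot be told apart in these sums.

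**Figure D2:**
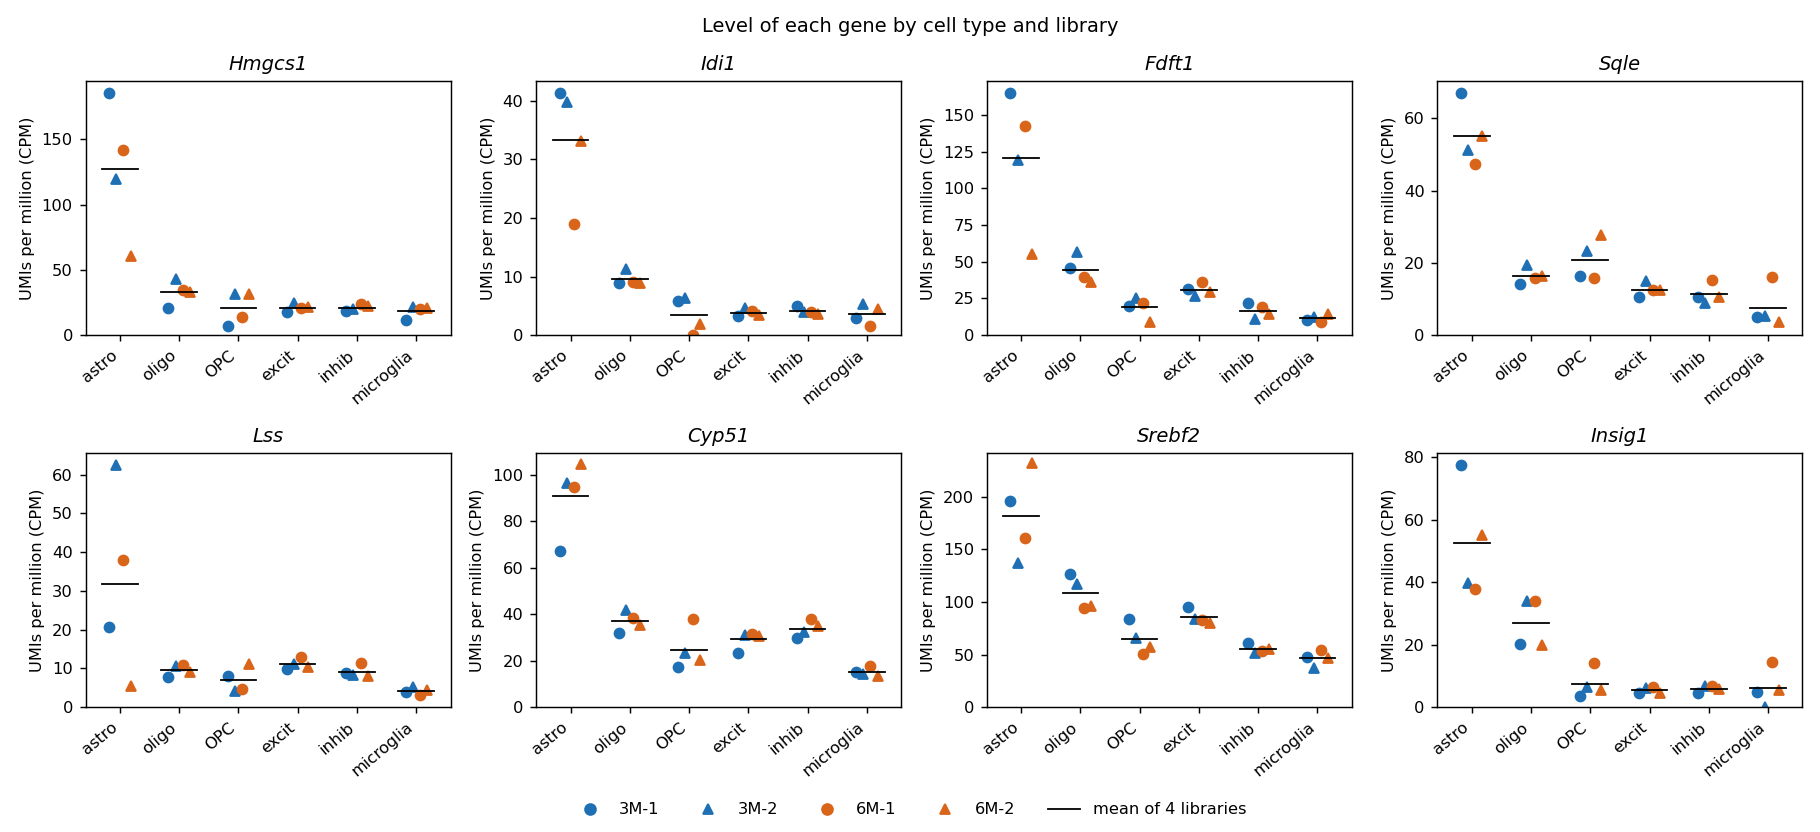
Each panel plots 1 gene, with the CPM of the summed UMIs on the y axis (from 0, with its own scale), the 6 cell types on the x axis, 1 point per library (blue 3 months, orange 6 months, circle replicate 1, triangle replicate 2) and a line at the mean of 4 libraries. The astrocytes have the highest mean in each panel, for example 127 CPM for Hmgcs1, and oligodendrocytes come second for Hmgcs1, Idi1, Fdft1, Cyp51, Srebf2 and Insig1.

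The order over the 6 cell types was then set by mean CPM and neighbours were tested in 1 fit over 24 sums. Of all 14178 genes, this fit called 26.9% (astrocytes and OPCs) to 75.5% (excitatory neurons and microglia) per pair, in either direction. The share was 35.3% for oligodendrocytes and astrocytes, 49.1% for excitatory and inhibitory neurons, and 73.8% for inhibitory neurons and microglia. Astrocytes came first by mean CPM for the 8 genes, though for Lss they lay above excitatory neurons in only 3 of 4 libraries. They were above the next type in each case except Insig1, where astrocytes (52.6 ± 18.3 CPM, SD, n = 4) lay above oligodendrocytes (27.0 ± 8.04 CPM, SD, n = 4) in 4 of 4 libraries and without overlap, but the difference did not pass the test (log2 -0.84 ± 0.34 SE for oligodendrocytes against astrocytes, edgeR adjusted p = 0.0546).

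For Hmgcs1, oligodendrocytes (33.1 ± 9.35 CPM, SD, n = 4) came above inhibitory neurons (21.2 CPM), excitatory neurons (21.2 CPM), OPCs (21.1 CPM) and microglia (18.5 CPM), and these 4 were not told apart from their neighbours, although excitatory neurons were called above microglia (log2 0.76, edgeR adjusted p = 0.00433) and inhibitory neurons as well (log2 0.55, edgeR adjusted p = 0.0446). For Idi1, oligodendrocytes (9.53 CPM) again came above the remaining types (3.51 to 4.14 CPM), which were not told apart. For Insig1, oligodendrocytes were above OPCs (7.42 CPM), and OPCs, microglia (6.22 CPM), inhibitory (5.92 CPM) and excitatory neurons (5.48 CPM) were not told apart.

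For Fdft1, the order was oligodendrocytes (44.5 CPM), excitatory neurons (30.9 CPM), OPCs (19.2 CPM), inhibitory neurons (16.6 CPM) and microglia (11.4 CPM), and of these neighbours only OPCs and inhibitory neurons were not told apart. For Srebf2, oligodendrocytes (109 CPM) and excitatory neurons (85.6 CPM) were not told apart (edgeR adjusted p = 0.0593), excitatory neurons were above OPCs (64.4 CPM), OPCs were not told apart from inhibitory neurons (55.4 CPM), and microglia were lowest (46.7 CPM). Both Fdft1 (log2 1.12, edgeR adjusted p = 2.01e-08) and Srebf2 (log2 0.84, edgeR adjusted p = 6.57e-10) were higher in excitatory than in inhibitory neurons.

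For Cyp51, oligodendrocytes (37.0 CPM), inhibitory neurons (33.8 CPM) and excitatory neurons (29.3 CPM) were not told apart, OPCs (24.8 CPM) came below excitatory neurons, and microglia (15.1 CPM) below OPCs. For Sqle, OPCs came second (20.8 CPM) and were not told apart from oligodendrocytes (16.4 CPM), nor were oligodendrocytes from excitatory neurons (12.6 CPM), while inhibitory neurons (11.3 CPM) and microglia (7.51 CPM) each came below. For Lss, excitatory neurons (11.0 CPM), oligodendrocytes (9.61 CPM), inhibitory neurons (9.17 CPM), OPCs (7.07 CPM) and microglia (4.26 CPM) were each not told apart from the next type in this order. Types further apart did pass the test for Lss: microglia were below excitatory neurons (log2 2.00 for excitatory neurons against microglia), oligodendrocytes (1.65) and inhibitory neurons (1.52), and excitatory neurons were above inhibitory neurons (0.48, edgeR adjusted p = 0.00550) and OPCs (0.90, edgeR adjusted p = 0.0222). Microglia had the lowest mean for 6 of the 8 genes, the exceptions being Idi1 (OPCs) and Insig1 (excitatory neurons).

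Across the 24 sums, the pairwise Pearson correlations of log2 CPM among the 8 genes ran from 0.49 (Insig1 and Lss) to 0.89 (Srebf2 and Fdft1). Without the 4 astrocyte sums they ran from 0.03 (Sqle and Idi1) to 0.85 (Srebf2 and Fdft1), over 20 sums. The sums of a library share its preparation and depth, so that these values describe the pattern only. The genes outside the sterol, fatty acid and marker lists whose pattern was most like the mean of the 8 genes were Prnp and Adk (r = 0.95 each), 4930488L21Rik, Acsl3, Gm12239, Slc27a1, Pmm1 and Tbcel (r = 0.92 to 0.94), out of 14074 genes compared over 24 sums. Acsl3, an acyl-CoA ligase, had a mean of 1048 CPM in astrocytes and 82.8 CPM in oligodendrocytes, against 29.1 CPM in excitatory neurons. Prnp had 241 CPM in astrocytes and 91.6 CPM in oligodendrocytes, against 53.1 CPM in excitatory neurons. Of the genes listed, Gm12239 alone was lower in oligodendrocytes (2.15 CPM) than in excitatory neurons (3.77 CPM), with 207 CPM in astrocytes. The likeness without the astrocyte sums was not examined.

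The other genes of the pathway were compared in the same way by list. Of 14 other synthesis enzymes, 10 were called higher and 1 lower in astrocytes, and 7 higher and 1 lower in oligodendrocytes, where 17.2% and 35.7% of all genes were called higher. The median log2 fold change of this list was 1.55 in astrocytes and 0.42 in oligodendrocytes. In astrocytes the smallest adjusted p-values were those of Msmo1 (3.61 on the log2 scale), Nsdhl (2.92), Mvd (3.12), Mvk (2.55), Fdps (2.11) and Tm7sf2 (1.59). Most astrocyte UMIs of Fdps came from the 3-month libraries, as given below with the ages. Only 5 of the 14 enzymes had enough UMIs for the age test in astrocytes alone, so that small counts limit these values. Msmo1 and Nsdhl remove methyl groups of the sterol ring, Tm7sf2 is a sterol reductase, and Mvk, Mvd and Fdps carry mevalonate to farnesyl diphosphate. The 1 gene called lower, Ebp, had 0 UMIs in astrocytes, which allows up to 4.57 CPM (3 UMIs over the class), and was at 4.29 CPM in neurons, so that no fold is given. With Ebp at that limit the list median was 1.55 as well.

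In oligodendrocytes, Lbr (log2 2.54), Msmo1 (1.32), Ebp (1.68), Fdps (1.41), Mvk (1.34) and Nsdhl (0.70) were among those higher. Lbr, a sterol reductase of the inner nuclear membrane, was at 73.7, 69.9, 72.8 and 80.6 CPM in oligodendrocytes and at 9.32, 13.1, 13.6 and 11.5 CPM in neurons. The 1 gene called lower, named after its values were seen, was Tm7sf2 (log2 -0.69), which acts at the same step as Lbr and was higher in astrocytes.

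Of 5 genes of sterol sensing, 0 were called in astrocytes by edgeR, and 0 had an unadjusted p under 0.05 (log2 -0.51 to 1.20). Small counts limit this result, as 0 of the 5 had enough UMIs for the age test in astrocytes alone. Across all genes, 44.6% were called in either direction there, and 7087 of 14117 had an unadjusted p under 0.05. In oligodendrocytes, where 35.7% of all genes were called higher, 2 of the 5 were higher, Scap (log2 0.37), which escorts SREBP, and Mbtps1 (log2 0.28), the protease that first cuts it.

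Of 7 genes of sterol turnover, 2 were called higher and 2 lower in astrocytes, and 3 higher and 3 lower in oligodendrocytes, where 44.6% and 74.9% of all genes were called in either direction. Abca1, which exports cholesterol to lipoproteins, was higher in both (log2 4.32 and 3.34), and Cyp46a1, the neuronal enzyme that hydroxylates cholesterol for removal, was lower in both (log2 -0.81 and -2.41). Abcg1, another exporter, was lower in astrocytes (log2 -3.19) and higher in oligodendrocytes (log2 1.76). Small counts limit the astrocyte values, as only 2 of the 7 genes had enough UMIs for the age test in astrocytes alone. Soat1, which esterifies cholesterol, was higher in astrocytes (log2 2.72) and lower in oligodendrocytes (log2 -0.42). In oligodendrocytes Nr1h2, a liver X receptor, was also higher (log2 0.84), and Mylip, a ubiquitin ligase and LXR target, lower (log2 -1.01).

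Of 12 genes of fatty acid synthesis, the branch under Srebf1, 10 were called higher in astrocytes, and 7 higher and 3 lower in oligodendrocytes, against the same 44.6% and 74.9% in either direction. Srebf1 itself was higher in astrocytes (log2 4.25) and oligodendrocytes (log2 3.05), as was the desaturase Scd2 (log2 3.09 and 3.37). The desaturase Fads2 was higher in astrocytes (log2 4.02) and lower in oligodendrocytes (log2 -2.10), and Fads1 had the same pair of signs (log2 1.88 and -1.01).

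**Figure D3:**
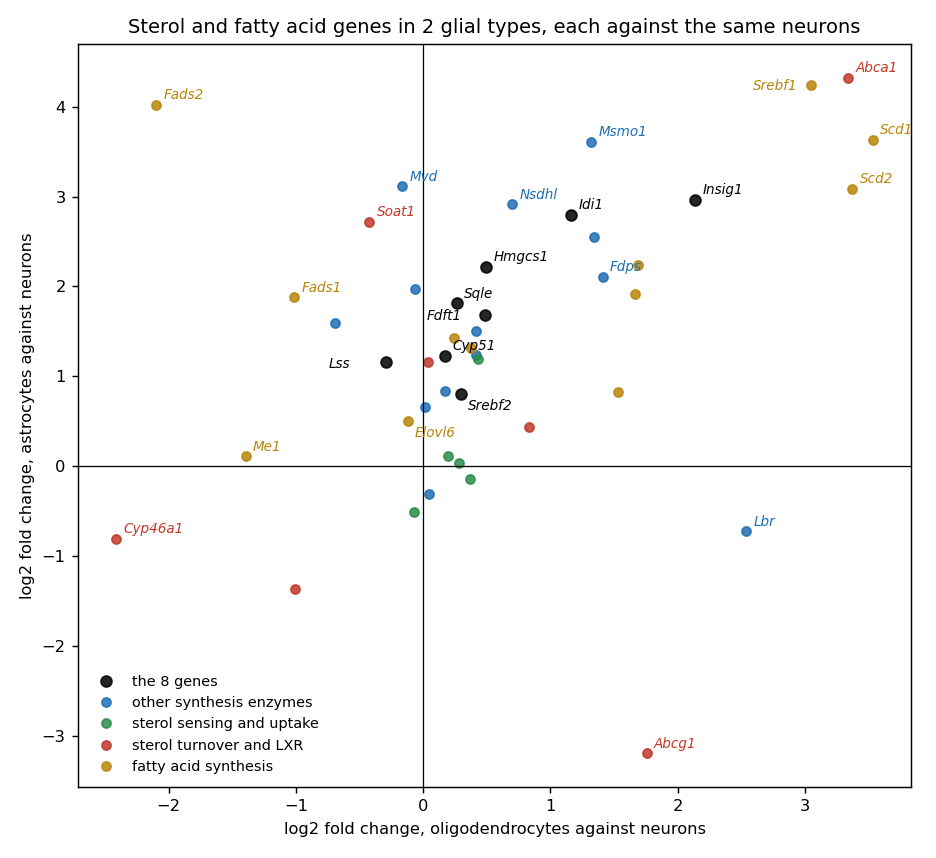
Each point is 1 gene, with its log2 fold change in oligodendrocytes on the x axis and in astrocytes on the y axis, each against the same neurons; colours mark the lists, and Ebp is left out because astrocytes held 0 UMIs of it. The 8 genes (black) lie above 0 on the y axis, Lss lies left of 0 on the x axis, and Fads1 and Fads2 lie left of 0 and above 0.

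The ages were compared in each cell type alone, 2 libraries against 2. None of the 8 genes was called by edgeR in any of the 6 cell types, and DESeq2 called none either. At an unadjusted p under 0.05 there were 2 genes in oligodendrocytes (Srebf2 and Fdft1) and 0 in each other type. Of all genes tested in oligodendrocytes, 856 of 12388 were under that limit. Adjusted calls were rare over all genes as well. They made up 0.0161% of 12388 genes in oligodendrocytes, 0% in astrocytes, 0.00521% in excitatory neurons, 0% in inhibitory neurons, 0% in OPCs and 0.255% in microglia. Only 4 of the 8 genes had enough UMIs for the test in astrocytes and in microglia, and 5 in OPCs.

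In oligodendrocytes, Srebf2 was at 126 and 117 CPM at 3 months and at 94.2 and 96.6 CPM at 6 months. The ages did not overlap, and the difference was -0.43 on the log2 scale (95% interval -0.80 to -0.06, edgeR adjusted p = 0.651). Fdft1 was at 45.7 and 56.6 CPM at 3 months and at 39.5 and 36.2 CPM at 6 months, a difference of -0.49 (95% interval -0.95 to -0.04, edgeR adjusted p = 0.667). The other 6 genes overlapped between ages, with log2 differences from -0.23 (Idi1) to 0.10 (Lss). That 2 of 8 genes did not overlap compares with 36.8% of all genes tested in oligodendrocytes, or 11.8% in the direction of lower at 6 months.

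In excitatory neurons, Srebf2 alone did not overlap between ages, at 95.2 and 84.3 CPM at 3 months and 83.0 and 79.8 CPM at 6 months (log2 -0.19, 95% interval -0.54 to 0.16, edgeR adjusted p = 0.823), where 37.5% of genes did not overlap and 16% were lower in this way. The 8 genes had log2 differences from -0.19 to 0.16 there, with interval limits from -0.71 to 0.56. In inhibitory neurons, Hmgcs1, Sqle and Cyp51 were higher at 6 months without overlap, where 34.6% of genes did not overlap and 17.5% were higher in this way. Sqle was at 10.4 and 8.91 CPM at 3 months and 15.2 and 10.5 CPM at 6 months (log2 0.41, 95% interval -0.19 to 1.01, edgeR adjusted p = 0.943). Hmgcs1 (log2 0.25) and Cyp51 (log2 0.22) differed by less, and neither passed the test.

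In OPCs, Srebf2 was at 83.8 and 65.8 CPM at 3 months and 50.6 and 57.5 CPM at 6 months (log2 -0.48, 95% interval -1.06 to 0.10, edgeR adjusted p = 0.926), 1 gene of 5 tested without overlap, where 34.5% of genes did not overlap and 18.2% were lower in this way. In microglia each of the 4 tested genes overlapped between ages, where 38.2% of genes did not overlap, and their log2 differences ran from 0.04 to 0.35. In astrocytes each of the 4 tested genes overlapped as well, where 34% of genes did not overlap. Their log2 differences were -0.73 for Hmgcs1 (95% interval -1.66 to 0.20), -0.68 for Fdft1 (95% interval -1.63 to 0.27), 0.24 for Srebf2 and 0.27 for Cyp51. With 1 library left out, Hmgcs1 ran from -1.38 (without 6M-1) to -0.15 (without 6M-2) and Fdft1 from -1.42 (without 6M-1) to -0.05 (without 6M-2). In the astrocyte sums the 8 microglia markers summed to 51.6 and 108 CPM at 3 months and to 104 and 414 CPM at 6 months, with 3, 5, 3 and 0 of them at 0 UMIs. The 8 markers of striatal spiny neurons summed there to 1012 and 2265 CPM at 3 months and to 341 and 557 CPM at 6 months, with 4, 5, 6 and 5 of them at 0 UMIs. Their part in the astrocyte values was not tested.

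**Figure D4:**
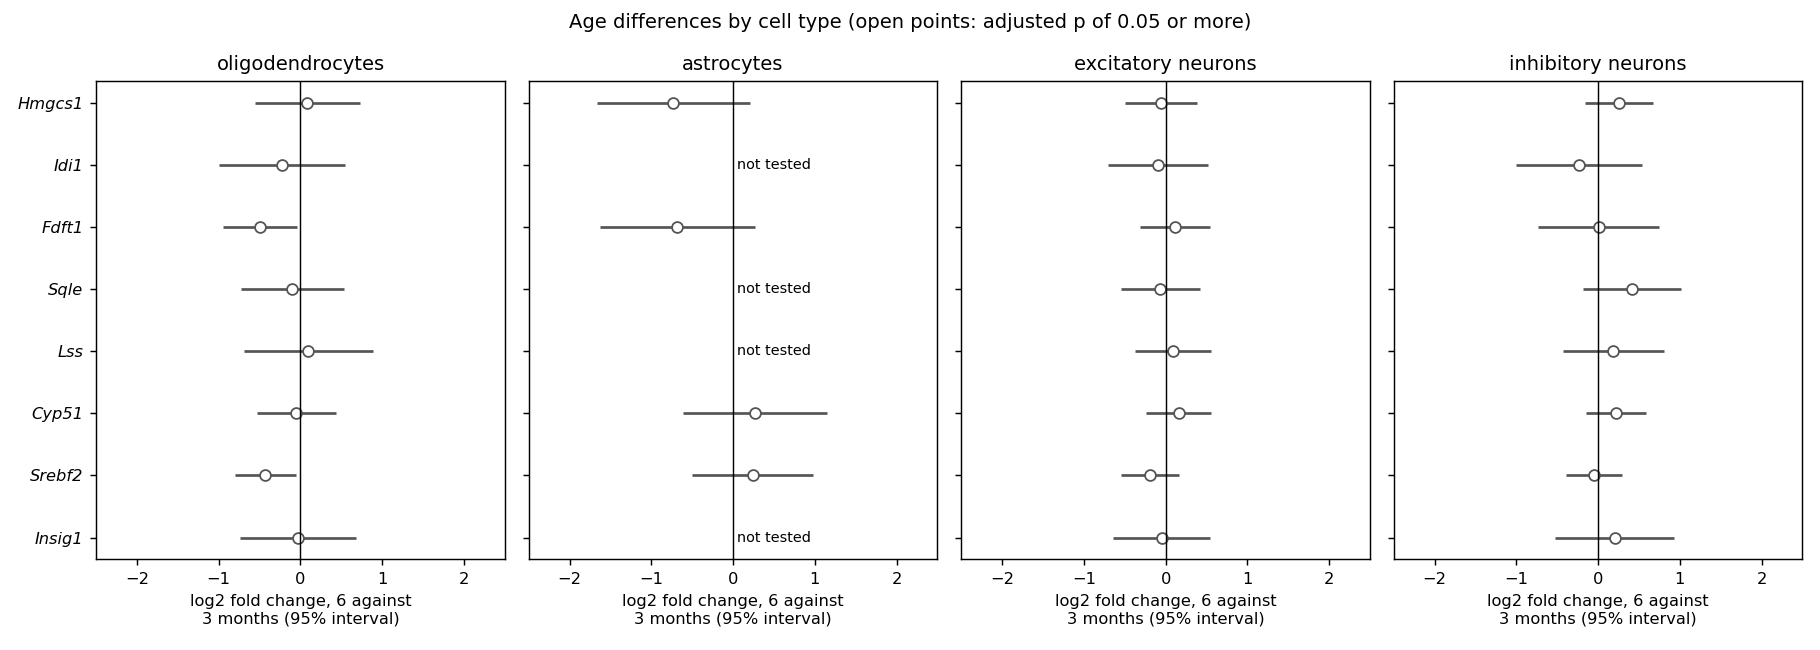
Points give the log2 fold change of 6 against 3 months (x axis) for each gene (y axis) in 4 cell types, from edgeR over 2 against 2 libraries, with 95% intervals as lines; open points did not pass an adjusted p of 0.05. The intervals include 0 for each point except Srebf2 and Fdft1 in oligodendrocytes, and 4 genes had too few UMIs for the test in astrocytes.

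Whether the age difference itself differed between glia and neurons was tested with an interaction term over 12 sums. None of the 8 genes was called by edgeR or DESeq2, in oligodendrocytes (where 1.4% of genes were called) or in astrocytes (0.184%). Low counts were filtered over the 12 sums together. Sqle, Insig1, Idi1 and Lss were therefore included, although their UMIs were too few for the age test in astrocytes alone. At an unadjusted p under 0.05 there was 1 gene in oligodendrocytes and 2 genes in astrocytes, where 1178 and 868 of all 14117 genes were under that limit. In oligodendrocytes this was Fdft1 (log2 -0.61, 95% interval -1.07 to -0.16, edgeR adjusted p = 0.269), whose neuronal levels were 30.0 and 24.7 CPM at 3 months and 32.8 and 26.7 CPM at 6 months. In astrocytes these were Hmgcs1 (log2 -0.89, 95% interval -1.72 to -0.06, edgeR adjusted p = 0.787) and Fdft1 (log2 -0.89, 95% interval -1.68 to -0.10, edgeR adjusted p = 0.756). Lss had the widest interval (log2 -1.40, -3.01 to 0.20), from 4, 11, 4 and 1 UMIs in astrocytes. With 1 library left out, the interaction of Fdft1 in oligodendrocytes ran from -0.92 (without 3M-1) to -0.37 (without 3M-2). In astrocytes that of Hmgcs1 ran from -1.44 (without 6M-1) to -0.30 (without 6M-2), Fdft1 from -1.37 (without 6M-1) to -0.42 (without 6M-2) and Lss from -2.86 (without 6M-1) to -0.45 (without 3M-2).

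None of the other genes of the sterol and fatty acid lists was called by edgeR between ages in any cell type in which it was tested, and 1 was called in the interaction for astrocytes, Elovl6. Elovl6, an elongase of fatty acids, was at 232 and 142 CPM at 3 months and at 66.3 and 66.2 CPM at 6 months in astrocytes, from 45, 25, 7 and 12 UMIs, and between 69.2 and 78.7 CPM in neurons (log2 -1.72 ± 0.40 SE, edgeR adjusted p = 0.0477). The call of Elovl6 did not hold with DESeq2 (adjusted p = 0.589), when any 1 library was left out (edgeR adjusted p = 0.0730 to 0.810), or without the replicate block (edgeR adjusted p = 0.554). Fdps, named here outside the rule for called genes given below, had 25 and 11 UMIs in astrocytes at 3 months and 2 and 1 UMIs at 6 months. It was not called (edgeR adjusted p = 0.259 for the ages).

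Abca1, named here after its values were seen, was higher in both 6-month libraries than in both 3-month libraries in each of the 6 cell types. Of all genes tested in a type, 34% (astrocytes) to 38.2% (microglia) did not overlap between ages, in either direction. The share of genes higher at 6 months in all 6 types at once was not counted. How common such a pattern is therefore cannot be told. The 6 types came from the same 4 libraries, so that they are not independent. The level of Abca1 was 69.2 and 74.6 CPM at 3 months and 136 and 122 CPM at 6 months in oligodendrocytes. In excitatory neurons it was 2.93 and 4.32 CPM against 9.96 and 9.51 CPM. The adjusted p was 0.196 in oligodendrocytes and 0.195 in excitatory neurons (edgeR), and Abca1 was called in none of the 6 types. In excitatory neurons the 8 oligodendrocyte markers summed to 48.9 and 58.4 CPM at 3 months and to 117 and 122 CPM at 6 months, and the 8 microglia markers to 79.5 and 117 CPM and to 160 and 135 CPM, with 0 of either list at 0 UMIs. In oligodendrocytes the microglia markers summed to 72.9 and 99.9 CPM at 3 months and to 84.9 and 86.4 CPM at 6 months. Their part in the Abca1 values was not tested.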

How the data were processed

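Single-nucleus count tables were deposited per library; the authors produced these UMI counts with Cell Ranger (7.0.0 in the matrix headers) on mm10, and Seurat is listed in the submitters' processing notes. Nuclei with at most 7000 genes and at most 1% mitochondrial UMIs were kept. Cell types were assigned from marker lists (score of at least 0.3, at least 3 markers, second list at most 0.5 of the first, 3 passes), and the scoring rule was set after looking at marker levels. No doublet caller was run; 1568 nuclei scoring on several lists were left out, and 5906 fell below the limits. Libraries shared 12 to 19 cell barcodes per pair, none with the same counts. Sums per library and type were tested with edgeR 4.0.16 (quasi-likelihood, TMM, low counts filtered, R 4.3.3), p-values being adjusted by Benjamini-Hochberg over all genes tested and called under 0.05. The log2 CPM behind the mean pattern of the 8 genes used a prior count of 0.5. DESeq2 1.42.0 was an alternative. The scripts were tested on simulated data. Ages were fitted per type, 2 libraries against 2, and classes with the library as a block. The labels give libraries of the same replicate number the same batch number, which pairs the ages; deviations of same-numbered libraries correlated at -0.136 (excitatory neurons) to 0.00832 (astrocytes) across genes. Beside the 8 genes, the rule named at most 6 called genes per list and comparison, smallest adjusted p first, and the 8 genes most like their mean pattern. The genes, lists and tests were chosen with earlier results of these data known. Totals per sum ran from 105573 UMIs (astrocytes) to 45435822 UMIs (neurons), and limits from counts cover counting error only. Some genes of the lists are not reported here.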

Additional observations from a re-analysis of the deposited data

Results flagged for a closer look

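A library stood apart from the other 3 by Dixon's test in 4 of the 48 sets of 4 libraries checked, where chance gives about 1 in 20. Cyp51 in excitatory neurons was lowest in 3M-1, at 23.3 CPM from 868 UMIs. Hmgcs1 in microglia was lowest in 3M-1, at 12.0 CPM from 12 UMIs. Sqle in microglia was highest in 6M-1, at 16.1 CPM from 20 UMIs. Idi1 in oligodendrocytes was highest in 3M-2, at 11.3 CPM from 17 UMIs. Dixon's test used the CPM alone and took no account of counting error. The age difference of Elovl6 differed between astrocytes and neurons by -1.72 on the log2 scale, by the edgeR interaction term. It stayed below 0 under the 15 alternatives run, from -2.13 to -1.31, and its call was lost in 13 of the 15.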

How the results depend on the processing

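The number of the 8 genes called higher in oligodendrocytes than in neurons was 5, and ran from 2 (DESeq2, where Insig1 and Idi1 kept the call) to 7 (sums scaled by their totals alone, chosen after seeing the data); it was 3 to 5 when 1 library was left out, with 3 without 3M-2. In astrocytes it was 8, and 3 with nuclei thinned to 1000 UMIs, where 3726 genes in all were called against 6298; it was 7 to 8 when 1 library was left out. The Lss difference in oligodendrocytes reversed to 0.11 against inhibitory neurons alone. The call of Srebf2 in oligodendrocytes was lost in 6 of 15 alternatives, among them the fit without the library as a block (log2 0.31, edgeR adjusted p = 0.0667), which called 4 of the 8 genes. Between ages, 0 of the 8 genes were called under each alternative run, the replicate block that pairs the batches included. Apart from the age differences and interactions followed singly, 39 such values of the 8 genes were checked for sign. Of these, 32 took the other sign in at least 1 alternative, so that their directions are not settled. The crossed pairing was not run. The cause of these changes was not tested. Astrocytes, with 190 nuclei, limit the depth of every value in that class.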
